A study of Mus musculus with 9 samples.

Results

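The genes described here copy DNA or carry cells through mitosis, and their RNA was measured in cultured mouse podocytes, the filtering epithelial cells of the kidney glomerulus. The list holds 48 genes: 33 of DNA replication, 4 that control entry into S phase (G1/S) and 11 of G2 and mitosis (G2/M). Probe sets with exactly 1 gene symbol were taken from the deposited table and the brightest one over all 9 arrays was kept for each gene, which left 45 of the 48 among 22180 measured genes. Those 45 were 32 of the 33 replication genes, 3 of the 4 G1/S genes and 10 of the 11 G2/M genes. Rfc4 and Ccne2 lay only on probe sets that carry several symbols, and Ccnb1 had no probe set with 1 symbol. All cells had been kept at 37 °C for 11 days to differentiate before treatment. For 16 hours they then received the solvent DMSO, thapsigargin at 2.5 µM, or the same dose of thapsigargin plus forskolin at 10 µM, with 3 arrays for each of the 3 groups. Thapsigargin blocks the calcium pump of the endoplasmic reticulum and sets off the unfolded protein response, and forskolin activates adenylyl cyclase and raises cyclic AMP. There was no group with forskolin alone, so every forskolin comparison was made in the presence of thapsigargin. The labels call the arrays biological replicates without saying how the cultures were separated, so p-values measure only the spread between these arrays. The podocyte line is not named in the labels.

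Before a cell copies its DNA, the origin recognition complex together with Cdc6 and Cdt1 loads the ring-shaped MCM helicase onto the chromosome, a step called licensing. In S phase Cdc45 and the GINS complex join the ring and turn it into an active helicase, and primase, the replicative polymerases, the sliding clamp PCNA and its loader RFC then copy the strands. Many of these genes are read out in late G1 under E2F factors, which the RB family holds back, while cyclins A and B, Cdk1, Plk1 and the Aurora kinases peak later, through promoters that carry CCAAT boxes and the cell cycle homology region (CHR) read by the DREAM and MuvB complexes. In the adult glomerulus podocytes have left the cell cycle, and cultured lines are usually made to stop dividing before use.

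The promoters of 7 members are shown because the 2 classes are known to be read through different elements. Each is the 250 bases before the annotated start, taken from RefSeq (GRCm38.p6) and written 5′ to 3′ in the direction of the gene. Capitals mark matches, on either strand, to 3 sets of letters: E2F (TTTCCCGC, TTTGGCGC, TTTGCCGC or TTTCGCGC), CHR (TTTGAA or TTCGAA) and CCAAT. No motif of one set contains a motif of another. Orc2, Cdc45 and Cdt1 had the largest differences among replication genes, and Mki67 and Plk1 are G2/M genes that fell. Mcm7 and Cdc6 were added after the search, as examples with an E2F match. Orc2 lies at chr1:58505110-58505359 on the minus strand, Cdc45 at chr16:18811973-18812222 on the minus strand and Cdt1 at chr8:122567765-122568014 on the plus strand. Mcm7 lies at chr5:138171884-138172133 on the minus strand and Cdc6 at chr11:98907901-98908150 on the plus strand. Mki67 lies at chr7:135716380-135716629 on the minus strand and Plk1 at chr7:122159185-122159434 on the plus strand.
Orc2: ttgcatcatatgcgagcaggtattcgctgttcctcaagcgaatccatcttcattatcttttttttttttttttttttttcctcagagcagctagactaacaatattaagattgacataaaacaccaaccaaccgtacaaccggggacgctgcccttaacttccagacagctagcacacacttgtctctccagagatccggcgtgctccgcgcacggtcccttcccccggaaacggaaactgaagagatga
Cdc45: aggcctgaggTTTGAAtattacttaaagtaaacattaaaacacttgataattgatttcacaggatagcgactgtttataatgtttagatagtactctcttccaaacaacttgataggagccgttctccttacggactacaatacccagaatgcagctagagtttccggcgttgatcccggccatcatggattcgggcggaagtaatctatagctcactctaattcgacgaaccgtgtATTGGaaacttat
Cdt1: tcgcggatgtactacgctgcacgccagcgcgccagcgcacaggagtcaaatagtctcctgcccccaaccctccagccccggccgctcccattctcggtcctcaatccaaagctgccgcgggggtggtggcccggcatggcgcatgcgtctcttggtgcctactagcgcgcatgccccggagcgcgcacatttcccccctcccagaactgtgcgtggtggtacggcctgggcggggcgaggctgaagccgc
Mcm7: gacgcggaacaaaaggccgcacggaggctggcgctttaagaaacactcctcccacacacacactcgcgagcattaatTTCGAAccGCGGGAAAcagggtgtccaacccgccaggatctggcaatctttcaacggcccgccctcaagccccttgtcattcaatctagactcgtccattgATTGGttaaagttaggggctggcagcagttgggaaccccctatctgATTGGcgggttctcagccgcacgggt
Cdc6: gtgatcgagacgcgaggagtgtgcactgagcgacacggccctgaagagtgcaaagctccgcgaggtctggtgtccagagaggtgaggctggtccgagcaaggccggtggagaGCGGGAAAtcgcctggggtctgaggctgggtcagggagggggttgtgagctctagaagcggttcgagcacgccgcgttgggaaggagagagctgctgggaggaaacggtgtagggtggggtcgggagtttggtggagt
Mki67: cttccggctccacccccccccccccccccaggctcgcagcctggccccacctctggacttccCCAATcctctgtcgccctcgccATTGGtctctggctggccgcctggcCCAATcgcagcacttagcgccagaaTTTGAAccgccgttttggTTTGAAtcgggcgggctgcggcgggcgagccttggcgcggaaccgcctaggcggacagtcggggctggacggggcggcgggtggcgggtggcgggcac
Plk1: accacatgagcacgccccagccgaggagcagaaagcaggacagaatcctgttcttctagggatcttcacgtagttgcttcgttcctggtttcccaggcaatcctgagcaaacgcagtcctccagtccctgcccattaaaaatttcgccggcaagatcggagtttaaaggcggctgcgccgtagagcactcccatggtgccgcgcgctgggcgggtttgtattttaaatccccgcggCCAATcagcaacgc
The Mki67 window held 2 CHR matches, 116 and 98 bases before the start, and 3 CCAAT matches, while the Plk1 window held 1 CCAAT match 14 bases before the start. In Mcm7 a CHR match 173 bases before the start stood next to an E2F match at 165, with CCAAT matches at 72 and 26, and in Cdc6 the E2F match began 138 bases before the start. Cdc45 held a CHR match at 240 and a CCAAT match at 13, and the windows printed for Orc2 and Cdt1 held none of the letters. Orc2 and Mcm7 each have 2 windows in the table, and the one farthest upstream is printed. The Orc2 window that is not printed held CCAAT, so Orc2 is among the genes counted with CCAAT.

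Of the 48 listed genes 38 had a promoter in that table. E2F letters were found in 8 of 26 replication genes (30.8%), namely Orc1, Cdc6, Mcm5, Mcm6, Mcm7, Gins3, Pola1 and Rfc3, and in 1 of 9 G2/M genes (11.1%), Cdk1. Windows of the same length held them in 2.16% of all 27025 genes of the table. CHR letters were found in 4 of 9 G2/M genes (44.4%), Ccnb2, Cdk1, Mki67 and Top2a, in 5 of 26 replication genes (19.2%) and in 19.6% of all genes. CCAAT stood in 8 of 9 G2/M genes (88.9%), 18 of 26 replication genes (69.2%) and 37.5% of all genes. These matches describe sequence and say nothing about factor binding in these cells.

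All values are log2 values normalised by RMA, which makes the distributions of the arrays alike, so every difference is relative to the bulk of the genes. Differences are given on the log2 scale with the standard error of the limma fit (n = 3 arrays per group). A gene is said to have risen or fallen only where its Benjamini-Hochberg adjusted p in that limma fit, taken over all 22180 genes, was below 0.05. Medians of the arrays lay between 5.80 and 5.88. As checks of the treatments, Ddit3, a target of the unfolded protein response, rose by 2.75 ± 0.06 (SE) with thapsigargin (limma adjusted p = 3.31e-09). Rgs2, a cyclic AMP target, rose by 2.48 ± 0.12 when forskolin was added (limma adjusted p = 3.58e-06). Rgs2 also rose with thapsigargin alone, from between 5.60 and 6.08 on DMSO arrays to between 6.74 and 6.90. Nr4a1, another cyclic AMP target, fell by 0.69 with thapsigargin and rose by 3.22 when forskolin was added. The podocyte label was checked on 10 measured markers. Synpo at 9.20 and Podxl at 8.46 were above the table median of 5.84 in DMSO, Wt1 at 6.80 and Nphs1 at 6.55 were nearer to it, and Ptpro at 5.35 was below it. The brightest of the 10 were Actn4, between 11.80 and 11.85 on DMSO arrays, and Cd2ap, between 11.32 and 11.36. Foxc2 lay between 7.60 and 7.77, Lmx1b between 7.11 and 7.41, and Tcf21 between 5.82 and 5.99. Single markers of other cell types were also bright in DMSO: the tubular Aqp1 at 11.71 and Cdh16 at 11.16. So were the mesangial Pdgfrb at 10.36 and the endothelial Ehd3 at 10.37. Other members of these lists were dimmer on the DMSO arrays. Among other tubular markers Lrp2 reached 9.66, and the rest lay between 4.32 and 7.02. The mesangial Mcam and Gata3 lay between 7.44 and 8.81, and the rest of that list between 4.87 and 6.825. All other endothelial markers lay between 3.86 and 6.30. On the same arrays the macrophage markers Csf1r, Cd68 and Cd14 lay between 7.82 and 8.08, and the rest of that list between 3.67 and 5.33. The mean log2 value of the 10 podocyte markers ran from 8.01 to 8.05 on DMSO arrays. It ran from 7.67 to 7.71 with thapsigargin and from 7.55 to 7.62 with both agents. That of 11 tubular markers ran from 7.11 to 7.21, from 6.36 to 6.44 and from 6.35 to 6.50, and under thapsigargin Cdh16 fell by 3.37 and Aqp1 fell by 3.24. Of these lists 4 of 10 podocyte and 3 of 11 tubular markers fell with thapsigargin, and 2 of 10 and 0 of 11 rose, where 16.9% of all genes fell and 18.2% rose. The podocyte markers that fell with thapsigargin were Synpo (-2.5243), Podxl (-0.6739), Actn4 (-0.3875) and Wt1 (-0.3539). Those that rose were Foxc2 (0.6585) and Cd2ap (0.2341). On adding forskolin 4 of the 10 podocyte markers fell, with Podxl lowest (-0.7903), and 1 rose, Synpo (0.5544). In that comparison 4.17% of all genes fell and 3.7% rose. Mesangial, endothelial and macrophage lists had means between 5.74 and 7.03 on all arrays. Single members of these lists changed too: with thapsigargin Pdgfrb fell by 1.23, Ehd3 fell by 1.21, the macrophage receptor Csf1r fell by 1.18 and Mcam fell by 0.73. On adding forskolin Mcam rose by 2.58 and Cd14 by 0.87. Markers from all 5 lists therefore moved with treatment, and their part in the results on replication and mitosis genes was not tested. In a bulk sample fewer cells of a type, or in a phase of the cycle, cannot be told apart from less RNA per cell.

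Thapsigargin against DMSO asks what the drug does to the programme. Of the 32 replication genes 20 rose and 0 fell by the limma test, with a median difference of 0.37, where 18.2% of all genes tested rose, 16.9% fell and the median was -0.04. At an unadjusted p below 0.05, 22 replication genes were higher and 1 was lower. The share of all genes at that looser cutoff was not counted, so the shares given here do not apply to such counts. Of the 10 G2/M genes 4 fell and 0 rose, with a median of -0.18, and at an unadjusted p below 0.05, 1 was higher. Of all 45 members 21 rose, 4 fell and 20 did not pass the test, where 35.0% of all genes were called in either direction. Groups did not overlap for 30 of the 45, against 43.9% of all genes. Called members that kept their call under all 16 alternative analyses were 18 of the 20 replication genes, without Pola1 and Pold1, and 4 of the 4 G2/M genes.

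**Figure D1:**
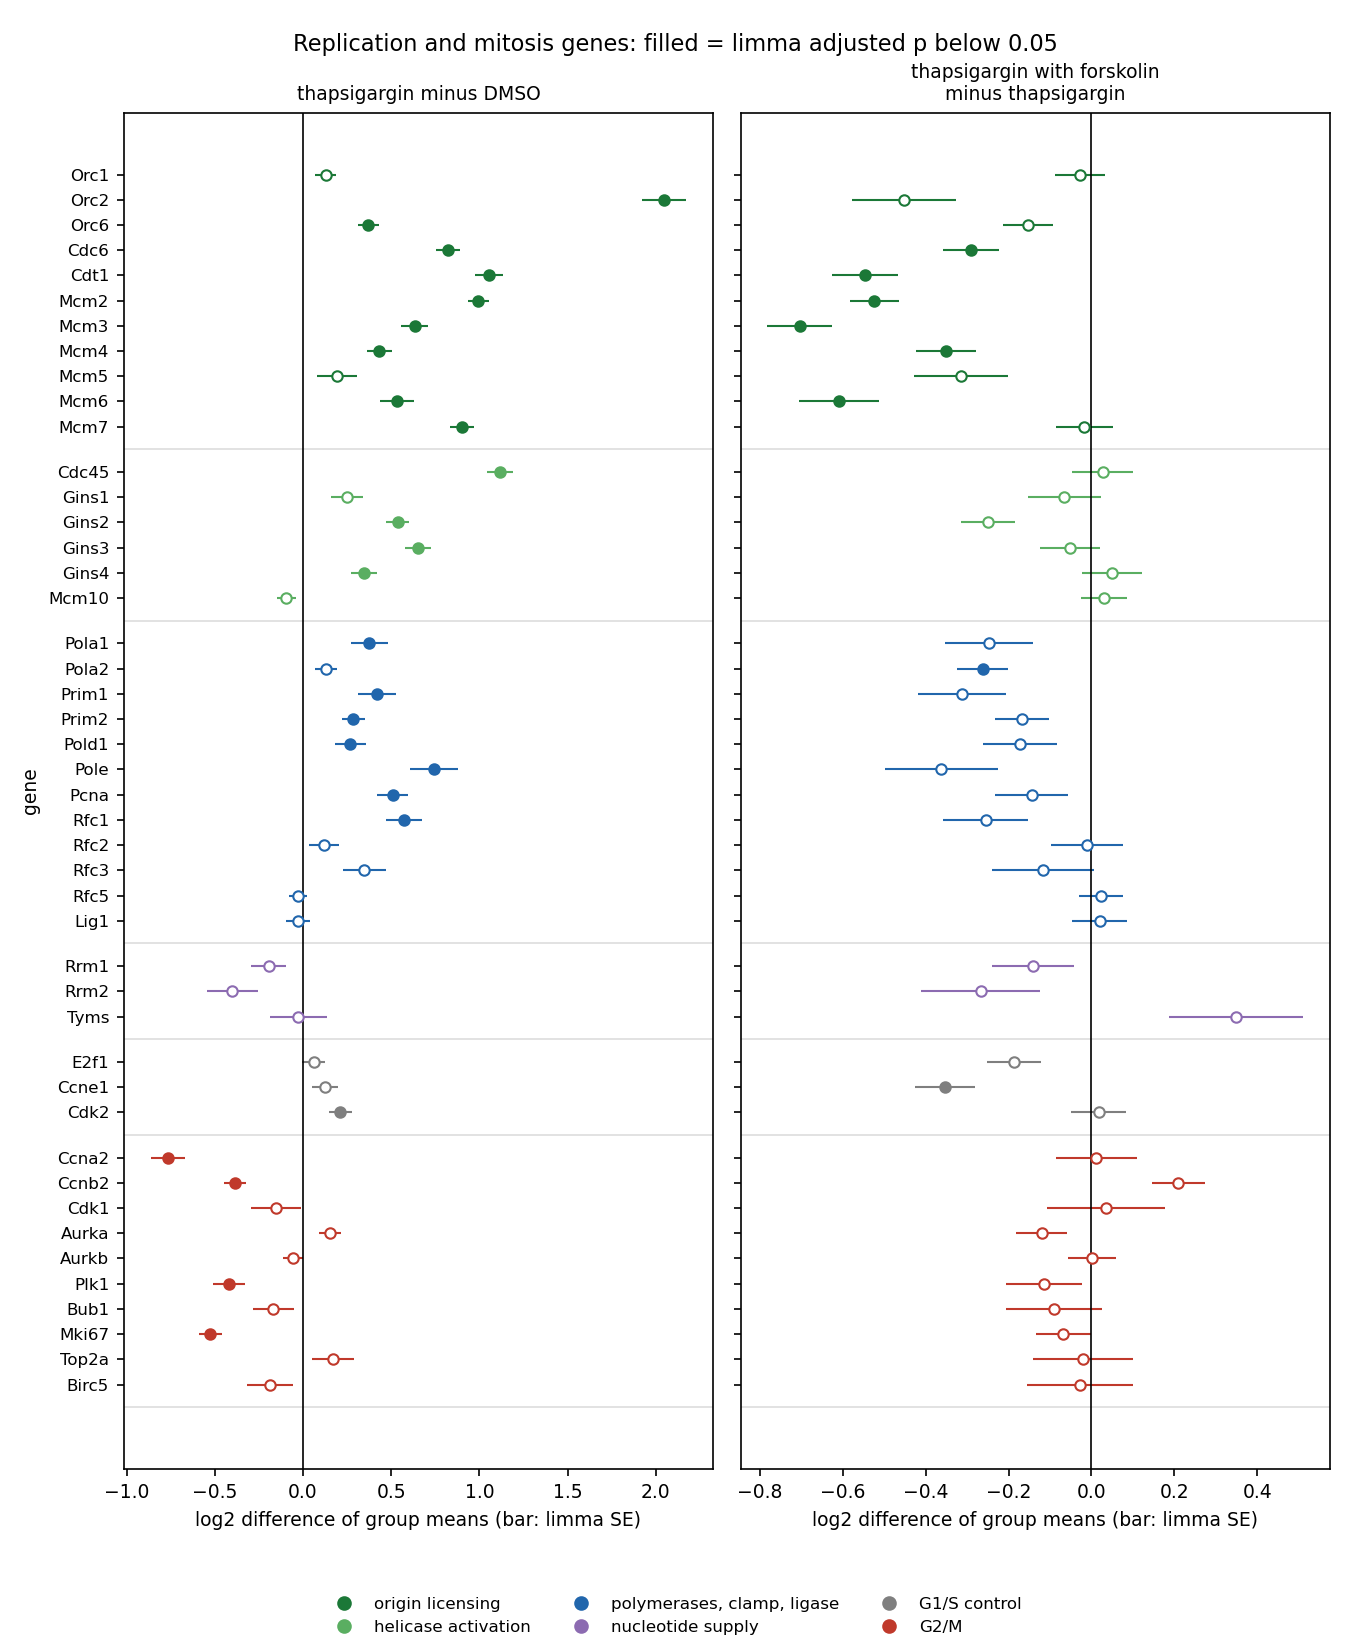
Log2 differences of the 45 measured members, thapsigargin minus DMSO on the left and thapsigargin with forskolin minus thapsigargin on the right, with limma standard errors as bars and filled points for genes with an adjusted p below 0.05. The horizontal scales of the panels differ. On the left 20 of 32 replication genes are filled above 0 and 4 of 10 G2/M genes are filled below 0, and on the right 8 members are filled, all below 0.

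Adding forskolin to thapsigargin asks whether cyclic AMP signalling changes the response. Of the 32 replication genes 7 fell and 0 rose by the limma test, with a median of -0.17, where 4.17% of all genes fell, 3.7% rose and the median was -0.01. At an unadjusted p below 0.05, 16 were lower and 0 higher. The share of all genes at that looser cutoff was not counted, and the 4.17% does not apply to it. Of the 10 G2/M genes 0 were called in either direction, with a median of -0.02, and 1 was higher at an unadjusted p below 0.05. Of all 45 members 8 were called, where 7.87% of all genes were called in either direction. Groups did not overlap for 20 of the 45, against 26.1% of all genes. Of the 7 replication genes that fell, 6 belong to licensing, and the other was Pola2. Only 4 replication genes were called when thapsigargin replicate 2, thapsigargin replicate 3, combined replicate 1 or combined replicate 2 was left out. Cdt1, Mcm2, Mcm3 and Mcm6 kept the call under all 16 alternatives, while Cdc6, Mcm4 and Pola2 lost it under some.

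In the cultures with both agents compared with DMSO, 12 replication genes rose and 2 fell of 32, with a median of 0.16, where 17.9% of all genes rose, 16.7% fell and the median was -0.04. Of the G2/M genes 3 of 10 fell and 0 rose, with a median of -0.20. Of all 45 members 13 rose and 6 fell, where 34.5% of all genes were called in either direction. Groups did not overlap for 23 of the 45, against 42.6% of all genes. Of the 19 called members 13 kept their call under all 16 alternatives, and Orc6, Pcna, Rfc1, Rrm1, Ccne1 and Cdk2 lost it under some. The 3 comparisons share arrays in pairs, so their values are set side by side here and are not independent of each other.

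Of the 4 replication classes, licensing had the highest median with thapsigargin and the lowest on adding forskolin. Of 11 licensing genes measured, 9 rose with thapsigargin (median 0.63), against 18.2% of all genes. When forskolin was added 6 fell (median -0.35), against 4.17%, and 6 stood above DMSO with both agents (median 0.22), against 17.9%. Orc2, a subunit of the origin recognition complex, measured 7.55, 7.91 and 8.15 on the DMSO arrays, 9.91, 9.92 and 9.92 with thapsigargin and 9.46 on each of the 3 arrays with both agents. The 3 groups did not overlap, and all treated arrays lay more than 1 unit above all DMSO arrays. Orc2 rose by 2.05 ± 0.12 with thapsigargin, a 4.13-fold difference (limma adjusted p = 1.13e-06), and by 1.60 ± 0.12 with both agents (limma adjusted p = 6.78e-06). Its difference on adding forskolin, -0.45 ± 0.12, did not pass the test (limma adjusted p = 0.0633). Orc2 was the only member whose value was the same on all 3 arrays of a group, so the spread in its test comes from the other groups and the fit's prior. Orc6, another subunit, rose by 0.37 ± 0.06 with thapsigargin (limma adjusted p = 0.000928), and Orc1, the large ATPase subunit, differed by 0.13 ± 0.06 (limma adjusted p = 0.14).

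Cdt1 and Cdc6 are the loaders that bring the MCM ring to the origin. Cdt1 measured 7.60, 7.47 and 7.76 in DMSO, 8.75, 8.57 and 8.68 with thapsigargin, and 8.10, 8.16 and 8.11 with both agents. Cdc6 measured 5.97, 5.996 and 6.19 in DMSO, 6.84, 6.88 and 6.91 with thapsigargin, and 6.55, 6.55 and 6.65 with both agents. For either loader the groups were separate, with thapsigargin highest, both agents in between and DMSO lowest. Cdt1 rose 2.08-fold with thapsigargin (limma adjusted p = 4.63e-06) and fell by 0.55 ± 0.08 when forskolin was added (limma adjusted p = 0.0028). Cdc6 rose by 0.82 ± 0.07 (limma adjusted p = 8.75e-06) and fell by 0.29 ± 0.07 (limma adjusted p = 0.0319). The fall of Cdc6 lost its call in 7 of 16 alternatives. Both stayed above DMSO with both agents, Cdt1 by 0.51 ± 0.08 and Cdc6 by 0.53 ± 0.07.

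The 6 subunits of the MCM2-7 ring did not move as a block. Mcm2 measured 8.58, 8.74 and 8.73 in DMSO, 9.67, 9.72 and 9.64 with thapsigargin, and 9.14, 9.19 and 9.13 with both agents. Mcm7 measured 8.34, 8.53 and 8.58 in DMSO, 9.36, 9.37 and 9.43 with thapsigargin, and 9.32, 9.38 and 9.41 with both agents. Mcm3 measured 7.28, 7.43 and 7.51 in DMSO, 7.99, 7.99 and 8.13 with thapsigargin, and 7.24, 7.35 and 7.42 with both agents. Mcm2 with both agents thus lay between the other groups, Mcm7 overlapped thapsigargin, and Mcm3 overlapped DMSO. With thapsigargin Mcm2 rose by 0.99 ± 0.06 (limma adjusted p = 9.79e-07), Mcm7 by 0.90 ± 0.07 (limma adjusted p = 5.32e-06) and Mcm3 by 0.63 ± 0.08 (limma adjusted p = 0.000134). When forskolin was added Mcm2 fell by 0.52 ± 0.06 (limma adjusted p = 0.000709) and Mcm3 by 0.70 ± 0.08 (limma adjusted p = 0.000641), the largest fall of any member in that comparison. Mcm7 differed by -0.02 ± 0.07 (limma adjusted p = 0.943). Its symbol is also carried by a probe set with several symbols, which was not used.

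Mcm6 followed the same order as Mcm3. It measured 7.62, 7.94 and 7.99 in DMSO, 8.33, 8.40 and 8.43 with thapsigargin, and 7.83, 7.83 and 7.67 with both agents, so that the last group lay inside the DMSO range and below all thapsigargin arrays. Mcm6 rose by 0.53 ± 0.10 (limma adjusted p = 0.00164) and fell by 0.61 ± 0.10 (limma adjusted p = 0.0044). Mcm4 rose by 0.43 ± 0.07 (limma adjusted p = 0.000929) and fell by 0.35 ± 0.07 (limma adjusted p = 0.0161). Mcm5 differed by 0.20 ± 0.11 and -0.32 ± 0.11, and neither difference passed the test. Against DMSO the differences with both agents were 0.47 for Mcm2 and 0.88 for Mcm7, which passed, and -0.07 for Mcm3, 0.08 for Mcm4, -0.12 for Mcm5 and -0.08 for Mcm6, which did not.

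**Figure D2:**
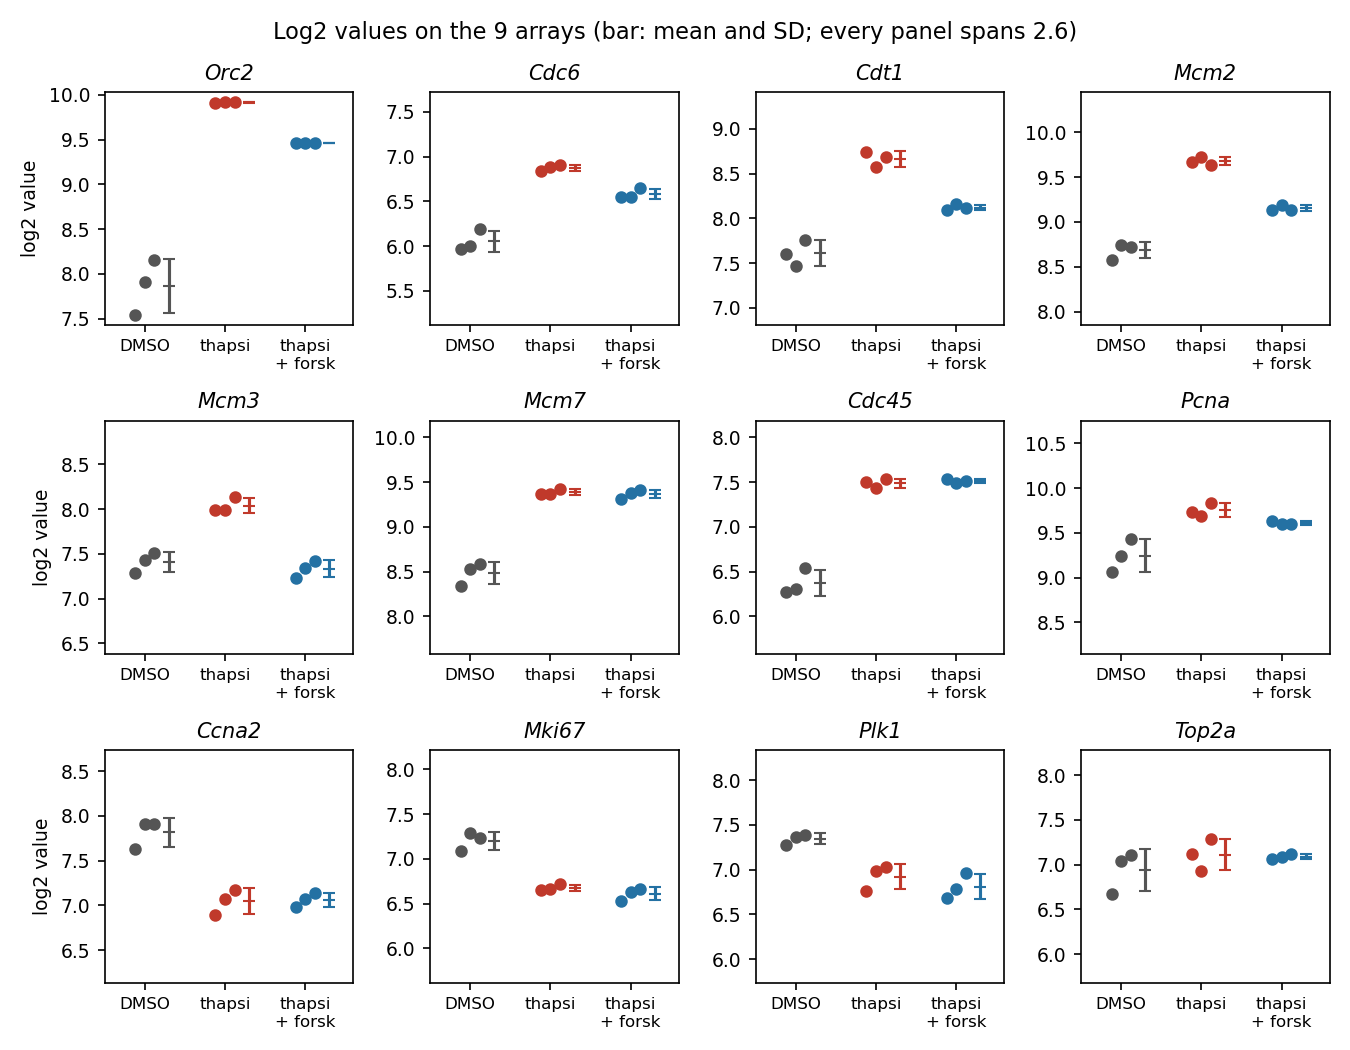
Log2 values on each of the 9 arrays for single members, 1 panel per gene with DMSO, thapsigargin and thapsigargin with forskolin from left to right, points for arrays and bars for the mean and SD (n = 3). Every panel spans the same number of log2 units. Orc2 has the widest step between DMSO and thapsigargin (2.05), and Ccna2 and Mki67 lie lower in both treated groups than in DMSO.

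Of the 6 genes that turn the loaded ring into a moving helicase, 4 rose with thapsigargin (median 0.44), against 18.2% of all genes. When forskolin was added 0 were called (median -0.01), against 7.87% of all genes. Cdc45, which joins the ring at firing, measured 6.27, 6.31 and 6.54 in DMSO, 7.50, 7.43 and 7.53 with thapsigargin, and 7.54, 7.49 and 7.52 with both agents. The treated groups overlapped each other and stood clear of DMSO. Cdc45 rose by 1.11 ± 0.07, or 2.17-fold, with thapsigargin (limma adjusted p = 2e-06) and by 1.14 ± 0.07 with both agents (limma adjusted p = 1.96e-06). The GINS subunits Gins2, Gins3 and Gins4 rose by 0.54, 0.65 and 0.35 with thapsigargin, and Gins1 differed by 0.25 (limma adjusted p = 0.055). Gins1 was dim, with a DMSO mean of 4.44 against the table median of 5.84. Gins2, Gins3 and Gins4 stayed above DMSO with both agents, by 0.29, 0.60 and 0.40. On adding forskolin Gins2 was the only one of the 6 with an unadjusted p below 0.05, at -0.25 ± 0.07 (limma adjusted p = 0.0509). Mcm10, which binds the helicase as it starts, differed by -0.09 and 0.03 in the first and second comparison and passed neither test.

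Among the 12 measured genes of primers, polymerases, clamp, clamp loader and ligase, 7 rose with thapsigargin (median 0.32), against 18.2% of all genes. On adding forskolin 1 fell (8.3%, median -0.17), against 4.17% of all genes. With both agents 2 stood above DMSO (16.7%, median 0.11), near the 17.9% of all genes that rose. Pcna, the sliding clamp that tethers polymerases to DNA, measured 9.06, 9.24 and 9.43 in DMSO, 9.74, 9.69 and 9.84 with thapsigargin, and 9.63, 9.60 and 9.60 with both agents. All treated arrays were above all DMSO arrays, and the thapsigargin arrays were above those with both agents. Pcna rose by 0.51 ± 0.09 (limma adjusted p = 0.0013), and the difference on adding forskolin was -0.14 ± 0.09 (limma adjusted p = 0.452). Pole, the catalytic subunit of the leading-strand polymerase, rose by 0.74 ± 0.14 with thapsigargin (limma adjusted p = 0.00178). A second, dimmer probe set of Pole, with a DMSO mean of 5.01, differed by 0.06. Rfc1, the large subunit of the clamp loader, rose by 0.57 ± 0.10 (limma adjusted p = 0.00144).

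The primase subunits Prim1 and Prim2 rose by 0.42 and 0.29 with thapsigargin, Pola1, the catalytic subunit of polymerase alpha, by 0.38 and Pold1, that of the lagging-strand polymerase delta, by 0.27. Pola1 and Pold1 lost their call in 3 and 9 of 16 alternatives. Rfc2, Rfc3, Rfc5, Pola2 and Lig1, the ligase that seals Okazaki fragments, ranged from -0.03 to 0.35 and did not pass. Pola2, a regulatory subunit of polymerase alpha, fell by 0.26 ± 0.06 on adding forskolin (limma adjusted p = 0.0323), a call lost in 7 of 16 alternatives. With both agents against DMSO, Pcna rose by 0.36 and Rfc1 by 0.32, calls that were lost in 1 and 7 of 16 alternatives. Of the enzymes that supply deoxynucleotides, Rrm1, Rrm2 and Tyms, 0 were called with thapsigargin by limma, where 35.0% of all genes were called in either direction. With so few genes the count does not set the class apart from that share. Rrm2 was lower at an unadjusted p below 0.05.

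Rrm2, the small subunit of ribonucleotide reductase that is limiting in S phase, measured 6.93, 7.28 and 7.45 in DMSO, 6.77, 6.80 and 6.89 with thapsigargin, and 6.28, 6.67 and 6.71 with both agents. The groups did not overlap and lay in descending order, with the DMSO arrays spread widest. The difference was -0.40 ± 0.14 with thapsigargin (limma adjusted p = 0.0598), and Rrm2 fell by 0.67 ± 0.14 with both agents (limma adjusted p = 0.00518). A second probe set of Rrm2, with a DMSO mean of 3.04, differed by -0.11 with thapsigargin and by 0.12 on adding forskolin. With the mean of both probe sets the difference for both agents was -0.33 (limma adjusted p = 0.0135). Rrm1, the large subunit, fell by 0.33 ± 0.10 with both agents (limma adjusted p = 0.0269), a call lost in 4 of 16 alternatives. Tyms, the thymidylate synthase, differed by -0.03 and 0.35 in the first and second comparison, with wide spread.

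Among the G1/S genes, Ccne1, the cyclin that drives S phase entry with Cdk2, measured 6.79, 7.03 and 6.88 in DMSO, 7.02, 7.06 and 6.995 with thapsigargin, and 6.74, 6.69 and 6.58 with both agents. The first pair of groups overlapped and the third lay below both. Ccne1 fell by 0.35 ± 0.07 on adding forskolin (limma adjusted p = 0.0167), a call lost in 4 of 16 alternatives. Cdk2 rose by 0.21 ± 0.07 with thapsigargin (limma adjusted p = 0.0329), which was lost in 6 of 16. E2f1, the activator of many replication promoters, differed by 0.06 and -0.19 and passed neither test.

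The G2/M genes went the other way or did not pass. Ccna2, the cyclin of S phase and G2, measured 7.63, 7.91 and 7.91 in DMSO, 6.89, 7.08 and 7.18 with thapsigargin, and 6.98, 7.07 and 7.13 with both agents. Mki67, the Ki-67 protein that coats mitotic chromosomes and serves as a marker of cycling cells, measured 7.09, 7.29 and 7.23 in DMSO, 6.65, 6.66 and 6.72 with thapsigargin, and 6.53, 6.63 and 6.67 with both agents. Plk1, a kinase of mitotic entry and exit, measured 7.27, 7.37 and 7.39 in DMSO, 6.76, 6.98 and 7.03 with thapsigargin, and 6.68, 6.79 and 6.96 with both agents. For all 3 genes every treated array was below every DMSO array, and the treated groups overlapped each other.

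With thapsigargin Ccna2 fell by 0.77 ± 0.10 (limma adjusted p = 0.000177), Mki67 by 0.52 ± 0.07 (limma adjusted p = 0.000158) and Plk1 by 0.42 ± 0.09 (limma adjusted p = 0.00505). Ccnb2, a B-type cyclin of mitotic entry, fell by 0.39 ± 0.06 (limma adjusted p = 0.000906). On adding forskolin Ccnb2 differed by 0.21 ± 0.06, the highest value of the class, without passing (limma adjusted p = 0.0899). Ccna2 differed by 0.01, Mki67 by -0.07 and Plk1 by -0.11 in the same comparison. With both agents against DMSO, Ccna2 fell by 0.75, Mki67 by 0.59 and Plk1 by 0.53, and Ccnb2 differed by -0.18 (limma adjusted p = 0.0605).

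Top2a, the topoisomerase that untangles chromosomes, measured 6.67, 7.04 and 7.10 in DMSO, 7.12, 6.93 and 7.29 with thapsigargin, and 7.07, 7.08 and 7.12 with both agents. All 3 groups overlapped, and the difference with thapsigargin was 0.17 ± 0.12 (limma adjusted p = 0.331). Cdk1, the kinase partner of the mitotic cyclins, measured 7.01, 7.36 and 7.68 in DMSO, a wider spread than in either treated group, and differed by -0.15 ± 0.14 with thapsigargin (limma adjusted p = 0.465). Aurka, Aurkb, Bub1 and Birc5, which act at spindles and kinetochores, ranged from -0.19 to 0.15 with thapsigargin and did not pass. Ccna2, Ccnb2, Plk1 and Mki67 therefore carried the G2/M falls, and 6 of the 10 did not pass.

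Replication and G2/M genes were set against each other array by array, by the median over each class of the value minus the gene's DMSO mean. For replication genes it was -0.10, 0.01 and 0.10 on the DMSO arrays, 0.41, 0.31 and 0.43 with thapsigargin, and 0.14, 0.20 and 0.18 with both agents. For G2/M genes it was -0.13, 0.04 and 0.08 in DMSO, -0.20, -0.25 and -0.15 with thapsigargin, and -0.21, -0.15 and -0.16 with both agents. The replication medians fell into 3 separate ranges with the combined treatment in the middle, and the G2/M medians of both treated groups overlapped each other below DMSO. DMSO replicate 1 was lowest of its group in both classes. Without it the G2/M median with thapsigargin was -0.29 in place of -0.18, and Ccna2, Ccnb2, Mki67 and Plk1 kept their calls. Licensing medians were 0.59, 0.58 and 0.73 with thapsigargin and 0.23, 0.22 and 0.21 with both agents, against -0.12, 0.05 and 0.10 in DMSO. Those of the helicase activators were 0.45, 0.42 and 0.47, then 0.30, 0.36 and 0.37, against -0.07, -0.05 and 0.05. The difference between classes was not tested, since members of a class are not replicates.

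**Figure D3:**
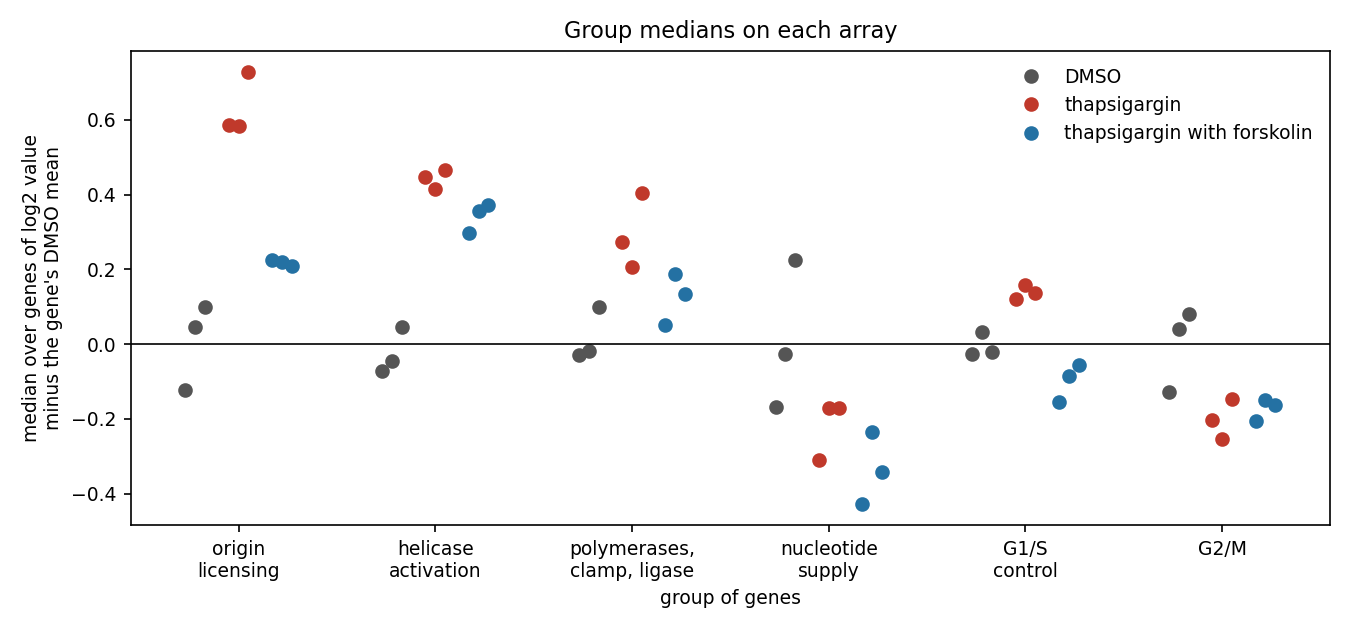
Median over the genes of a class of the log2 value minus each gene's DMSO mean, for each of the 9 arrays, with the replication genes drawn as 4 classes by role beside the G1/S and G2/M genes. Licensing genes lie between 0.58 and 0.73 on thapsigargin arrays and between 0.21 and 0.23 with both agents, while G2/M genes lie between -0.25 and -0.15 on all 6 treated arrays.

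Other genes of the same processes were counted from lists that do not overlap the members. Of 33 measured other replication genes 21 rose and 5 fell with thapsigargin, with a median of 0.45, against 18.2% and 16.9% of all genes. The 4 largest were Recql4, a helicase of origin firing, at 1.30, Pold2, a polymerase delta subunit, at 1.22, Dut, the dUTPase, at 1.04 and Tipin, of the fork protection complex, at 1.04. On adding forskolin 2 fell, Ticrr, which helps load Cdc45, by 0.36 and Dut by 0.31, and the median was -0.10. That is 6.1% of the list, near the 4.17% of all genes that fell, and neither call held in all 16 alternatives. Dut has 2 probe sets, and its call was lost with their mean. With both agents 18 rose (54.5%) and 6 fell (18.2%) against DMSO, with a median of 0.30. Of all genes 17.9% rose and 16.7% fell, so the share that fell was near that of all genes. The largest were Recql4 at 1.32 and Pold2 at 1.02. Next came Rpa3, of the single-strand binding complex, at 0.85 and Fen1, the flap nuclease of Okazaki fragments, at 0.81.

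The wider mitosis list differed in its counts from the G2/M members. Of 37 measured, 12 rose (32.4%) and 5 fell (13.5%) with thapsigargin, with a median of 0.09, against 18.2% and 16.9% of all genes. The largest were Tpx2, a spindle assembly factor, at 0.97, Anln, a scaffold of the cleavage furrow, at 0.85, and the condensin subunits Smc2 at 0.62 and Ncapd2 at 0.50. The share that fell was not above that of all genes. Kif20a and Pttg1 fell under all 16 alternatives, and Kif2c, Cenpe and Nusap1 lost their calls in 6, 3 and 9 of them. On adding forskolin Tpx2 alone was called and fell by 0.32, which is 2.7% of the list, against 4.17% of all genes that fell. With both agents against DMSO 11 rose (29.7%) and 7 fell (18.9%), with a median of 0.02. Of all genes 17.9% rose and 16.7% fell, so the share that fell was near that of all genes. The largest were Anln at 0.82, Tpx2 at 0.64, the phosphatase Cdc25c, which activates Cdk1, at 0.56 and Ncapd2 at 0.51. Foxm1, a transcription factor of G2/M genes, measured 7.02, 7.41 and 7.41 in DMSO, 7.50, 7.61 and 7.60 with thapsigargin, and 7.40, 7.56 and 7.54 with both agents. Its difference of 0.29 ± 0.10 with thapsigargin did not pass (limma adjusted p = 0.0636).

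Of 15 checkpoint genes 13 rose with thapsigargin and 1 fell, with a median of 0.76, where 18.2% of all genes rose and 16.9% fell. The kinase Atr, which senses stalled forks, rose by 1.11, its partner Atrip by 1.08, the helicase Blm by 1.07 and Brca2, of homologous recombination, by 0.93. Wee1, the kinase that holds back Cdk1, fell by 0.89. On adding forskolin Atr, Brca2, Exo1 and Rad9a fell by 0.38, 0.31, 0.30 and 0.25, where 4.17% of all genes fell. Each of these calls was lost in 6 or 8 of 16 alternatives. Atr has 2 probe sets, and its call was lost with their mean. With both agents 10 rose and 1 fell against DMSO, with a median of 0.63, where 17.9% of all genes rose and 16.7% fell. The largest were Blm at 1.05, Atrip at 0.89, the checkpoint kinase Chek2 at 0.84 and the adaptor Mdc1 at 0.80.

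Of 19 G1 cyclins, E2F and RB family members and partners, 6 rose and 11 fell with thapsigargin, with a median of -0.35. In that comparison 18.2% of all genes rose and 16.9% fell. Myc, a growth regulator, measured 9.38, 9.16 and 9.04 in DMSO, 11.71, 11.60 and 11.58 with thapsigargin, and 11.225 on each array with both agents. It rose 5.41-fold with thapsigargin (limma adjusted p = 3.69e-08). The cyclin Ccnd1, which opens G1 with Cdk4 and Cdk6, measured 10.80, 10.73 and 10.72 in DMSO, 10.07, 10.06 and 10.12 with thapsigargin, and 9.26, 9.26 and 9.42 with both agents. The groups were separate and in descending order, and Ccnd1 fell by 0.66 ± 0.06 with thapsigargin and by a further 0.78 ± 0.06 with forskolin (limma adjusted p = 1.59e-05 and 6.32e-05). Ccnd3 fell by 1.002, and the RB family genes Rbl2 and Rb1, which restrain E2F, by 0.80 and 0.70 with thapsigargin, while the other RB family gene, Rbl1, rose by 0.46 (limma adjusted p = 0.00407). Ccnd2 fell by 0.66 (limma SE 0.05). On adding forskolin Cdk6 fell by 0.53, Myc by 0.41 and Tfdp1, an E2F partner, by 0.38. In the same comparison Rbl2 rose by 0.36, Rb1 by 0.26 and Ccnd3 by 0.21. The calls of Myc, Rb1 and Ccnd3 were lost in 5, 5 and 10 of 16 alternatives. Those for Rb1 include the mean of its 2 probe sets. With both agents against DMSO 4 rose and 11 fell, where 17.9% of all genes rose and 16.7% fell. The largest were Myc at 2.03, Ccnd1 at -1.44, Cdk6 at -0.89 and E2f8, a repressor of the family, at -0.88.

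Inhibitors of cyclin-dependent kinases fell with thapsigargin in 6 of 7 cases, with a median of -0.45, where 16.9% of all genes fell. Cdkn2b (p15) measured 10.63, 10.57 and 10.54 in DMSO, 9.50, 9.51 and 9.51 with thapsigargin, and 9.40, 9.55 and 9.45 with both agents. It fell by 1.07 ± 0.06 (limma adjusted p = 3.91e-07), Cdkn2a by 0.81, Cdkn2d by 0.53 and Cdkn2c by 0.45. Cdkn1a (p21) fell by 0.17 (limma adjusted p = 0.0306) and Cdkn1c (p57) by 0.24 (limma adjusted p = 0.0498), calls that were lost in 6 and 12 of 16 alternatives. Cdkn1b (p27) measured 8.31, 8.32 and 8.42 in DMSO, 8.27, 8.06 and 8.16 with thapsigargin, and 8.69, 8.86 and 8.83 with both agents. The arrays with both agents were above all others. Cdkn1b rose by 0.63 ± 0.07 on adding forskolin (limma adjusted p = 0.000839), while its difference with thapsigargin alone, -0.19, did not pass (limma adjusted p = 0.0804). With both agents against DMSO Cdkn1b rose by 0.44, and Cdkn2b, Cdkn2a and Cdkn2d differed by -1.11, -0.89 and -0.32, all called. Cdkn2c and Cdkn2d also rose on adding forskolin, by 0.40 and 0.21, calls that were lost in 5 and 11 of 16 alternatives.

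**Figure D4:**
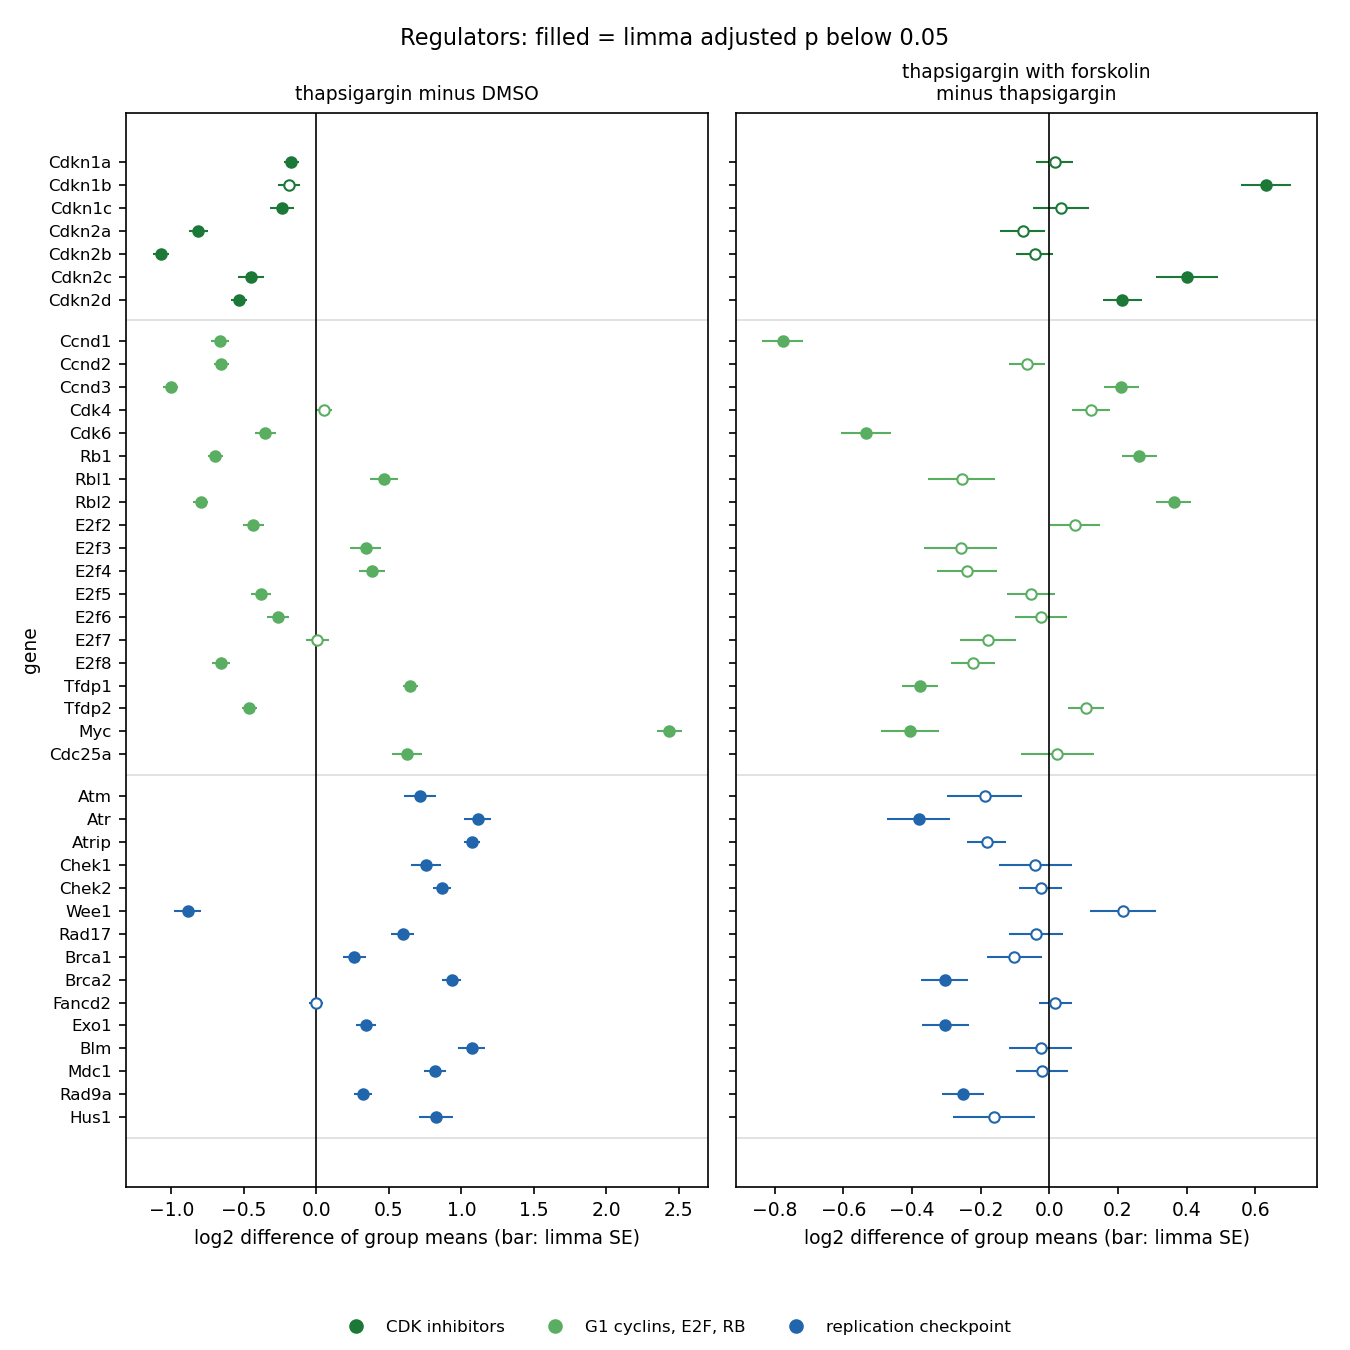
Log2 differences with limma standard errors for inhibitors of cyclin-dependent kinases, G1 cyclins with E2F and RB family genes, and checkpoint genes, thapsigargin minus DMSO on the left and thapsigargin with forskolin minus thapsigargin on the right, filled where the adjusted p was below 0.05. The horizontal scales of the panels differ. Myc at 2.43 lies farthest to the right on the left panel, and Ccnd1 at -0.78 and Cdkn1b at 0.63 mark the ends of the right panel.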

How the data were processed

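Total RNA of podocyte cultures was hybridised to 9 single-colour arrays. The authors deposited a log2 value for every probe set on every array. The submitters' processing notes name affy and RMA without versions. RMA makes array distributions alike, so changes in total RNA per cell cannot be seen, and detection of single probe sets was not checked. Of 41345 probe sets 23521 carry 1 gene symbol, and the brightest for each gene gave 22180 genes. Only Pole and Rrm2 among the members had a second probe set with 1 symbol. Mcm7, Tyms and Top2a also lie on probe sets with several symbols, which were not used.

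A single model of the 3 group means was fitted to the 9 arrays (limma 3.58.1, R 4.3.3, 6 residual degrees of freedom, eBayes, two-sided), adjusted over all genes and called below 0.05. The script was tested on simulated data. The members and lists were chosen with earlier results of these data known. Values on every array were printed for the 6 replication or G1/S members and 3 G2/M members with the largest differences among those called, for Pcna, Mcm2, Mki67 and Top2a, and, chosen after their values were seen, for Mcm3, Mcm6, Rrm2, Ccne1, Cdk1, Foxm1, Myc, Ccnd1, Cdkn1b and Cdkn2b. All called members were named, and from other lists the 4 largest called per comparison, with Cdkn1a, Cdkn1b, Cdkn1c, Ccnd1, Ccnd2 and Foxm1 whatever their values. Podocyte, tubular, mesangial, endothelial and macrophage markers checked the label. Promoter letters were counted in any window of a gene. Alternatives comprised other normalisations, priors, weights, filters, covariates and arrays left out. The number of arrays limits the precision. Figures were drawn with matplotlib 3.10.9.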

Additional observations from a re-analysis of the deposited data

How the results depend on the processing

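No called member reversed under any of the 16 alternatives, and the 4 G2/M falls with thapsigargin held. In that comparison 18 to 22 replication genes rose under the alternatives, and 1 fell under 9 of the 16, against 0 as reported. With 1 array left out 19 to 21 were called. The forskolin count of replication genes was 7, and 4 to 5 with 1 array left out. The G1/S class has only 3 genes and moved most. With 1 array left out its called genes ran from 0 to 1, 0 to 1 and 0 to 2 and its medians from 0.0715 to 0.19, -0.22 to -0.13 and -0.16 to -0.0713, for thapsigargin, added forskolin and both agents against DMSO. Its thapsigargin median was 0.0752 with array weights, 0.16 centred on array medians and 0.0715 without DMSO and combined replicate 1, and 0 genes were called after quantile normalisation. Without those 2 arrays its forskolin median was -0.13 and its median for both agents -0.0848, which was -0.185 after quantile normalisation, and 1 gene was called from the 6 arrays compared. The G2/M median ran from -0.29 to -0.11 with thapsigargin and from -0.29 to -0.14 with both agents when 1 array was left out. It was -0.29 with thapsigargin without the 2 arrays named, and -0.27 over the 8 G2/M genes above the median level, of which 1 was called, as higher, on adding forskolin. Of same-numbered arrays, those numbered 3 deviated together in every pair of groups (correlations of 0.21, 0.23 and 0.18), as did DMSO and combined replicate 1 (0.25), while the other pairs lay between -0.07 and 0.04. Not every pair was above 0.1, so the numbers were not taken to pair the cultures. With the replicate number as a block, 21, 6 and 15 replication genes and 4, 0 and 4 G2/M genes were called in the 3 comparisons. The number of arrays and unchecked signal over background limit low values such as Cdc6 in DMSO. The same holds for Gins1, Birc5, Bub1 and Orc1, with DMSO means of 4.44, 5.24, 5.53 and 5.70, below the table median of 5.84.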
